A study of Cocos nucifera with 22 samples.

Results

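The genes described here encode proteins of the cytosolic ribosome of coconut (*Cocos nucifera*), followed in leaf RNA over 4 times of a salt treatment in 2 varieties. They are the 35 entries of a supplementary table of the study whose product name contains 40S ribosomal protein, 60S ribosomal protein or 60S acidic ribosomal protein, out of 25247 genes listed in any library. The copy of that table used here holds 738 entries and ends before the last of them. The table lists only genes that were put into a class by their FPKM in Hainan tall leaves, so the members were chosen by the tall libraries and not by those of Aromatic dwarf. Of the 35 members, 12 were classed as raised at 4 h, 18 as high throughout and 5 as lowered late. The members are not the whole ribosome. They fall into 28 families by protein name, with 10 small-subunit genes, 22 large-subunit genes and 3 stalk genes.

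The cytosolic ribosome translates nuclear mRNA and has a small (40S) and a large (60S) subunit, each built of ribosomal RNA and a set of mostly small, basic proteins. Proteins named S belong to the small subunit, which reads the mRNA, and those named L to the large subunit, which joins amino acids, while the acidic P proteins form the stalk of the large subunit, which recruits elongation factors. Plants keep several gene copies for nearly every ribosomal protein, and ribosomal protein mRNAs are known to respond to growth and stress signals.

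The leaves came from greenhouse seedlings of 4 to 5 months. The salted groups were leaves of Hainan tall and of Aromatic dwarf taken 4 h, 6 d and 10 d after irrigation with 200 mM NaCl in a nutrient solution. The methods give this salt irrigation as weekly, and do not state whether the leaves of 10 d had a further dose. Leaves of the same variety at 0 h were the control. Each group had 3 libraries, except for 2 libraries per variety at 10 d. Libraries of a variety that carry the same number came from 1 leaf, according to the methods, which speak of 3 seedlings but do not tie leaves to seedlings. The p-values therefore measure the spread among these leaves. Unsalted leaves after 0 h are not part of the samples used here, so the salt cannot be told apart from the time of day, from the days that passed or from the weekly solution.

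Depth was 2977359 to 3445467 expected counts per library (median 3235470), and a member had 21 to 3124 counts in a library. All 35 members passed the filter on low counts, which left 18840 genes for the test. Changes were tested on the counts with the quasi-likelihood test of edgeR, and genes with a Benjamini-Hochberg adjusted p under 0.05 over all genes tested were called. Levels of single libraries are given as counts scaled by TMM to library size (CPM), and levels that are compared between genes as FPKM, which also divides by transcript length. The libraries were run on 2 flow cells, AV and AW. All dwarf libraries of 0 h were on AV and all libraries of 10 d on AW, and the fit holds a term for the flow cell, which called 6 genes and 0 members. All 25 leaf marker genes (chlorophyll a-b binding proteins, small chain of Rubisco, photosystem I subunits) were listed in every library, and together they took 2.42% to 9.01% of the counts.

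The members were most abundant at 4 h in both varieties. Together they took 0.617% ± 0.010 of the counts at 0 h, 0.893% ± 0.071 at 4 h, 0.487% ± 0.085 at 6 d (SD, n = 3 each) and 0.549% ± 0.029 at 10 d (n = 2) in the tall. The dwarf shares were 0.676% ± 0.062 at 0 h, 0.953% ± 0.112 at 4 h, 0.428% ± 0.094 at 6 d (SD, n = 3 each) and 0.372% ± 0.017 at 10 d (n = 2). Each 4 h library had a larger share than any other library of its variety. By mean FPKM, 29 members in the tall and 32 in the dwarf were highest at 4 h. The share of all genes with that pattern is not given here, so these counts have no background. Tall values had a part in choosing the members, in some for a rise at 4 h, so the tall figures are a description only. The dwarf exceptions were S5, L26-2 and S27a. By mean CPM S8 and L21-1 were further dwarf exceptions, with 473 and 179 CPM at 6 d, against 459 and 176 CPM at 4 h. Since the RNA is from whole leaf pieces, fewer cells of a type and less of an RNA per cell cannot be told apart.

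**Figure D1:**
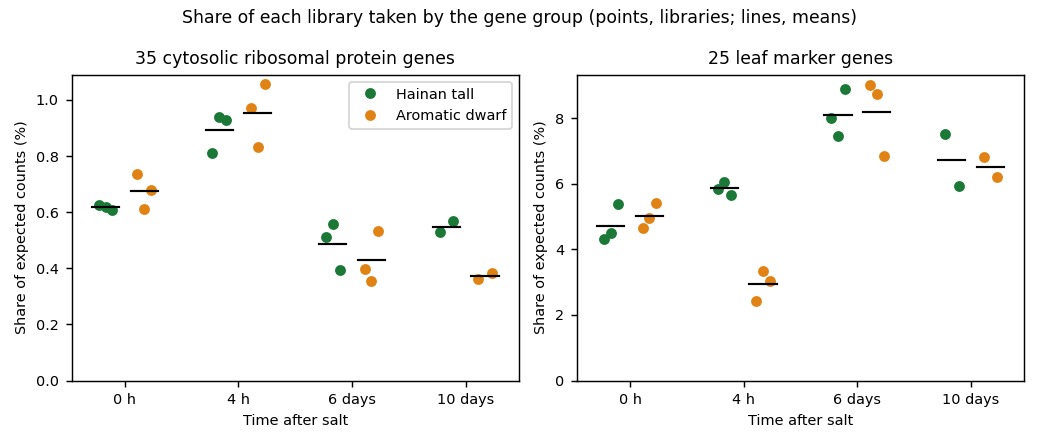
Share of the expected counts of each library taken by the 35 cytosolic ribosomal protein genes (left) and by the 25 leaf marker genes (right), in percent, over the 4 times in Hainan tall and Aromatic dwarf, with points for libraries and lines for group means. The ribosomal protein share is highest at 4 h in both varieties, whereas the leaf marker share at 4 h is 5.67% to 6.05% in the tall and 2.42% to 3.35% in the dwarf.

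Levels differed widely among the members. Mean FPKM over the 22 libraries ran from 72.6 for the L37a copy CN01_10G003160 to 866 for S18. The SD within a group had a median of 14.0% of the group mean (0.262% to 53.1% over all members and groups). All group means that follow are in FPKM and in the order 0 h, 4 h, 6 d, 10 d.

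In the small subunit, S18 (CN01_scaffold018793G000010), at the head of the subunit, averaged 435, 1358, 494 and 498 FPKM in the tall and 832, 1902, 619.8 and 570.5 FPKM in the dwarf. S19 (CN01_scaffold003535G000010) averaged 605, 954, 620.1 and 673 FPKM in the tall and 769.7, 987, 549.7 and 458 FPKM in the dwarf, and S8 (CN01_02G015160) 622, 819, 673 and 869 FPKM in the tall and 653, 792, 661 and 569 FPKM in the dwarf. These were the most abundant together with S5 (CN01_02G008210), a protein near the mRNA exit, with 865, 706, 642 and 791 FPKM in the tall and 683, 623, 528 and 426 FPKM in the dwarf. By FPKM S5 was highest at 0 h in both varieties, but by CPM its tall mean was 447 at 0 h and 489 at 10 d. S6 (CN01_scaffold001962G000100), known as the target of S6 kinase in the TOR growth pathway, averaged 609, 631, 397 and 468 FPKM in the tall and 659.7, 667, 319.9 and 324 FPKM in the dwarf. S27a (CN01_16G004970), which is made as a fusion with ubiquitin, averaged 534, 381, 478 and 419.6 FPKM in the tall and 464, 406, 342 and 299 FPKM in the dwarf. By FPKM it too was highest at 0 h in both varieties, but by CPM its tall mean was 217 at 0 h and 239 at 6 d. S3-3 (CN01_scaffold007470G000050), of the mRNA entry channel, averaged 399, 572, 314 and 309 FPKM in the tall and 438, 612, 282 and 264 FPKM in the dwarf. SA (CN01_08G003030), which is needed for small-subunit maturation in yeast, averaged 360.4, 463, 265 and 316 FPKM in the tall and 327, 484, 209 and 133 FPKM in the dwarf. The order of the last times in SA differs between the varieties. S15a (CN01_16G007570) averaged 409, 574, 156 and 151 FPKM in the tall and 433, 625, 131 and 109.8 FPKM in the dwarf. S7 (CN01_14G007080) was the least abundant, with 58.2, 129, 36.6 and 35.2 FPKM in the tall and 79.3, 159.8, 39.7 and 28.5 FPKM in the dwarf.

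In the large subunit, L44 (CN01_10G000240) averaged 560.0, 1101, 591 and 659 FPKM in the tall and 689, 1081, 545 and 631 FPKM in the dwarf. L7-3 (CN01_11G009710) averaged 680.1, 1091, 573 and 713 FPKM in the tall and 860.3, 1155, 489 and 514 FPKM in the dwarf, and L7-4 (CN01_01G008150) 378, 754, 306 and 351 FPKM in the tall and 626, 873, 292 and 237 FPKM in the dwarf. These exceeded the other large-subunit genes in mean FPKM over all libraries. L23A (CN01_09G006190), at the exit of the peptide tunnel where the signal recognition particle docks, averaged 403, 697, 267 and 325 FPKM in the tall and 384, 625, 187 and 183 FPKM in the dwarf. L26-2 (CN01_03G008380), also near that exit, averaged 435, 388, 245 and 261 FPKM in the tall and 329, 276, 162 and 112 FPKM in the dwarf. Unlike L23A it was highest at 0 h. L5 binds the 5S ribosomal RNA. Its copy CN01_02G012410 averaged 374, 517, 202 and 255 FPKM in the tall and 373, 553, 181 and 146 FPKM in the dwarf, and its copy CN01_scaffold004063G000090 453, 415, 284 and 379 FPKM in the tall and 355, 429, 267 and 211 FPKM in the dwarf. Only the first was highest at 4 h in both varieties.

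The 3 L9 copies lie on chromosomes 7, 8 and 10. CN01_07G008500 averaged 364, 429, 304 and 317 FPKM in the tall and 345, 437, 281 and 235 FPKM in the dwarf, and CN01_10G006530 379, 630.0, 301 and 256 FPKM in the tall and 407, 665, 237 and 223 FPKM in the dwarf. CN01_08G008030 averaged 98.7, 260.2, 65.9 and 72.0 FPKM in the tall and 109.9, 297, 36.8 and 30.4 FPKM in the dwarf, below the other copies in every group. L36-3 (CN01_16G007840) averaged 294, 646, 214 and 214 FPKM in the tall and 434, 779, 187 and 139.7 FPKM in the dwarf. L21-1 (CN01_10G006950) averaged 381, 453, 399 and 516 FPKM in the tall and 349.9, 408, 338 and 269 FPKM in the dwarf, and L34 (CN01_05G007290) 385, 503, 327 and 388 FPKM in the tall and 349.8, 465, 289 and 238 FPKM in the dwarf. Both had a higher mean at 10 d than at 6 d in the tall and a lower one in the dwarf. L13-1 (CN01_07G015340) averaged 200.4, 434, 177 and 166 FPKM in the tall and 241, 462, 148 and 119 FPKM in the dwarf. L19-3 (CN01_scaffold001518G000030) averaged 163, 372, 188 and 201 FPKM in the tall and 247, 459, 157 and 157 FPKM in the dwarf, and L23 (CN01_09G009430) 128, 299, 146 and 118 FPKM in the tall and 192, 353, 157 and 120.1 FPKM in the dwarf. All 3 were lower in the tall at 0 h by group mean.

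The zinc-binding L37a had a copy CN01_06G005180 with 156, 359, 166 and 172 FPKM in the tall and 301, 429.8, 209.6 and 159 FPKM in the dwarf, and a copy CN01_10G003160 with 37.9, 122, 46.5 and 50.1 FPKM in the tall and 62.1, 152, 47.3 and 47.5 FPKM in the dwarf. The L35a-1 copy CN01_06G007390 averaged 95.7, 215, 107 and 108 FPKM in the tall and 127, 213, 82.3 and 85.8 FPKM in the dwarf, and the copy CN01_14G000200 60.1, 144, 54.7 and 52.4 FPKM in the tall and 77.2, 145, 56.4 and 34.1 FPKM in the dwarf. In both pairs 1 copy had the higher mean in every group. L32-1 (CN01_06G018030) averaged 123, 132, 59.96 and 51.4 FPKM in the tall and 138, 179, 39.0 and 35.2 FPKM in the dwarf, and L37-1 (CN01_06G003790) 111, 144, 45.7 and 54.0 FPKM in the tall and 111, 162, 62.9 and 44.7 FPKM in the dwarf. In the stalk, P0 (CN01_12G000420), the base that carries the other stalk proteins, averaged 294, 376, 123 and 126 FPKM in the tall and 316, 398, 84.8 and 77.6 FPKM in the dwarf. P2A (CN01_contig69287513G000010) averaged 114, 156, 46.6 and 58.4 FPKM in the tall and 149.9, 208, 50.2 and 30.3 FPKM in the dwarf, and P2B (CN01_06G007010) 51.1, 115, 50.1 and 62.9 FPKM in the tall and 85.5, 145, 35.8 and 48.6 FPKM in the dwarf. By FPKM all 3 had late means below 0 h in both varieties, except for P2B in the tall at 10 d. By CPM the tall P2B mean was also above 0 h at 6 d (17.7 against 14.7 CPM).

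Part of these levels depends on how reads were divided among similar genes. In 31 members the expected count was not whole in at least 1 library (tolerance 0.005), which happens when a read matches several genes. The 4 members with whole counts in all 22 libraries were S5, S6, S3-3 and the L9 copy CN01_08G008030. Of these, S3-3 and CN01_08G008030 rose at 4 h in the dwarf and S6 and CN01_08G008030 fell at 6 d.

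**Figure D2:**
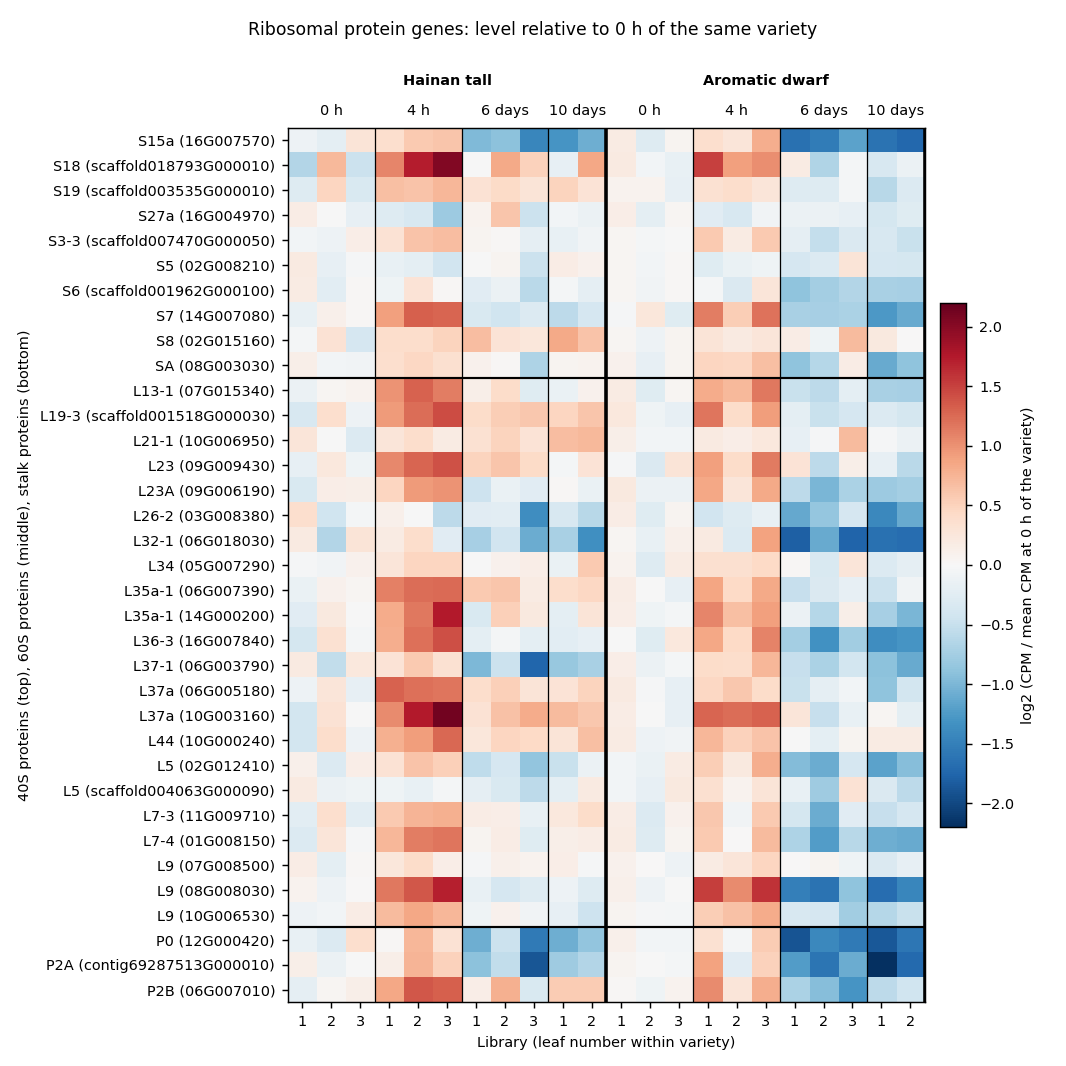
Level of each of the 35 members in each of the 22 libraries, as the log2 of its TMM-scaled count (CPM) over the mean at 0 h of the same variety (red, higher; blue, lower), with genes grouped as 40S, 60S and stalk proteins and libraries ordered by variety and time. Most genes are red at 4 h in both varieties, and more genes are blue at 6 d and 10 d in the dwarf than in the tall.

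In dwarf leaves at 4 h, 3 small-subunit genes, 10 large-subunit genes and 1 stalk gene rose. Of the 35 members, 14 rose and 0 fell against 0 h, where 5.81% of all genes rose and 7.23% fell. The members were chosen by their class in the tall, in part for a rise at 4 h, and all genes were not. Shares of all genes, here and at the later times, are therefore no matched background for the members. Without adjustment, 23 members were higher at p under 0.05 and 0 lower. The shares of all genes just given are for adjusted calls and are no background to these unadjusted counts. The median change of the members was 0.60 on the log2 scale (range -0.07 to 1.37), and that of all genes was 0.00. In 25 members every 4 h library lay above every 0 h library, against 17.1% of all genes, and in 1 member, S5, every 4 h library lay below, against 16.8% of all genes.

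Among the 10 small-subunit genes 3 rose at 4 h. S7 had 89.2, 59.6 and 94.2 CPM at 4 h, against 40.3, 48.7 and 34.1 CPM at 0 h. Its lowest 4 h library was above the highest 0 h library, and the log2 fold change was 0.98 ± 0.19 (SE, edgeR adjusted p = 0.0029). S3-3 rose by 0.53 ± 0.16 (adjusted p = 0.0332) and S15a by 0.60 ± 0.20 (adjusted p = 0.0496). S18 had 958, 628 and 687 CPM at 4 h, against 388, 323 and 299 CPM at 0 h. Its groups did not overlap, but its change of 0.95 ± 0.37 did not pass the test (adjusted p = 0.0978, and 0.0221 with the leaf as a block). S5 had 301, 326 and 339 CPM at 4 h, against 370.0, 346 and 367 CPM at 0 h. Its change of -0.07 ± 0.19 did not pass (adjusted p = 0.853).

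In the large subunit 10 of 22 genes rose at 4 h. The change was largest in the L9 copy CN01_08G008030 (chromosome 8, 49354327 to 49359066), which had 162, 115 and 169 CPM at 4 h, against 61.1, 51.8 and 55.7 CPM at 0 h. These groups were well apart, and the log2 fold change was 1.37 ± 0.20 (2.59-fold, adjusted p = 0.000383). L13-1 (chromosome 7, 64035447 to 64039725) had 239, 223 and 302 CPM at 4 h, against 155, 113 and 139 CPM at 0 h. It rose 2.003-fold (SE 0.18 on the log2 scale, adjusted p = 0.00227). The L37a copy CN01_10G003160 had 35, 33.7 and 35.3 CPM at 4 h, against 16.2, 14.4 and 12.8 CPM at 0 h. Its 4 h libraries were nearly equal, and it rose by 1.14 ± 0.26 (adjusted p = 0.00907).

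The L9 copy CN01_10G006530 had 303, 327 and 368 CPM at 4 h, against 218, 205 and 201 CPM at 0 h, and rose by 0.76 ± 0.15 (adjusted p = 0.00302). The L35a-1 copy CN01_06G007390 had 66.8, 49.8 and 65.6 CPM at 4 h, against 41.2, 36.6 and 32.4 CPM at 0 h, and rose by 0.74 ± 0.17 (adjusted p = 0.00978). Neither pair of groups overlapped. The other 5 that rose were L23, L37-1, L19-3, L36-3 and L23A, with changes of 0.67 to 0.91 and adjusted p of 0.0186 to 0.0412. The L35a-1 copy CN01_14G000200 (adjusted p = 0.0711) and the L5 copy CN01_02G012410 (adjusted p = 0.0565) passed only with the leaf as a block (adjusted p = 0.0245 and 0.0438).

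Of the 3 stalk genes P2B rose. It had 51.8, 30.1 and 43.4 CPM at 4 h, against 25.5, 23.4 and 26.3 CPM at 0 h, a change of 0.86 ± 0.26 (adjusted p = 0.0355). That call was lost without any 1 of the 0 h libraries and without library 1 or library 3 of 4 h (adjusted p of 0.0555 to 0.112). P2A had 81.6, 37.3 and 62.9 CPM at 4 h, against 46.2, 43.9 and 43.0 CPM at 0 h. One of its 4 h libraries lay below all of 0 h, and the change of 0.61 ± 0.29 did not pass the test (adjusted p = 0.187). P0 had a change of 0.48 ± 0.26 (adjusted p = 0.241).

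By their class in the tall, 9 of the 12 genes raised there at 4 h rose in the dwarf at 4 h, 3 of the 18 genes high throughout and 2 of the 5 genes lowered late. All 12 of the first class had every dwarf 4 h library above every dwarf 0 h library. The dwarf libraries had no part in that classing, but the comparison of the classes was not tested.

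Leaf markers moved the other way at this time. Their share was 2.42%, 3.35% and 3.04% of the counts in the dwarf 4 h libraries, against 4.66% to 5.43% at 0 h, and 17 of 25 fell and 1 rose. In the tall their share was 5.67% to 6.05% at 4 h, against 4.32% to 5.37% at 0 h. Their part in the ribosomal protein result was not tested. Among the 4 h libraries of the dwarf, library 3 was on the flow cell of the 0 h libraries. It alone lay above all of 0 h in 32 of 35 members, against 33.1% of all genes, with a median log2 ratio of 0.69. The count of 14 was 6 without library 2 of 0 h, 8 without library 3 of 0 h, 8 without library 1 of 4 h and 3 without library 3 of 4 h. Among the 6 members with the smallest adjusted p, CN01_08G008030, L13-1 and CN01_10G006530 were called in each of these fits.

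**Figure D3:**
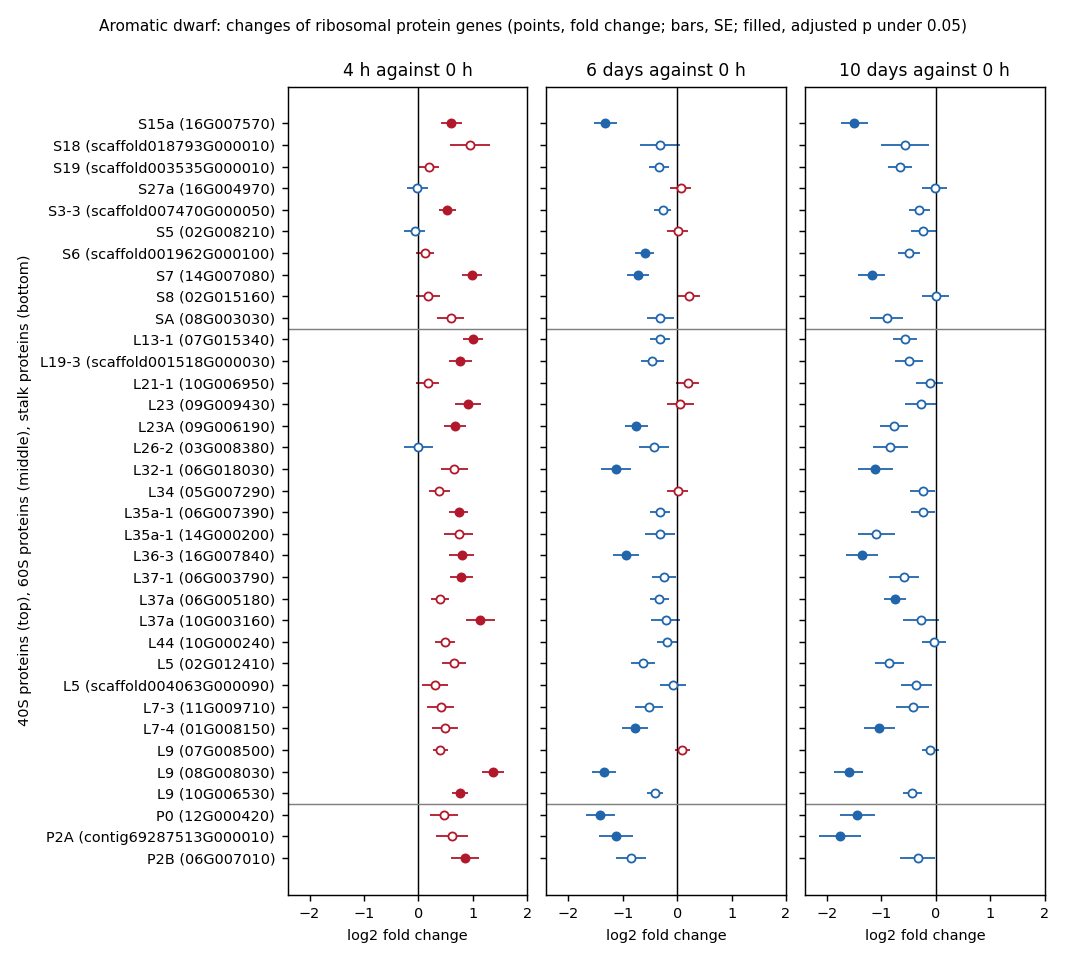
Log2 fold change of each member in Aromatic dwarf leaves at each of the 3 times after salt against 0 h (points, with SE as bars), with filled points for an edgeR adjusted p under 0.05 and genes grouped as 40S, 60S and stalk proteins. At 4 h the 14 filled points are all to the right of 0, and at 6 d and 10 d the 10 and 9 filled points are all to the left.

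At 6 d the dwarf leaves had less RNA of 10 members than at 0 h, and of 0 members more, where 3.61% of all genes fell and 4.36% rose. At an unadjusted p under 0.05 the counts were 14 lower and 0 higher, to which those shares of all genes do not apply. The median change was -0.33 (range -1.41 to 0.22), against -0.02 for all genes, and 18 members had every 6 d library below every 0 h library (16.9% of all genes). By role, 3 of 10 small-subunit genes, 5 of 22 large-subunit genes and 2 of 3 stalk genes fell.

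S15a (chromosome 16, 35371304 to 35381606), of the small subunit, had 47.2, 50.7 and 65.2 CPM at 6 d, against 168, 121 and 155 CPM at 0 h. All its 6 d libraries were below the lowest 0 h library, and it fell by 1.32 on the log2 scale (SE 0.21, adjusted p = 0.00322). The L9 copy CN01_08G008030 had 19.7, 18.1 and 30.4 CPM at 6 d, against 61.1, 51.8 and 55.7 CPM at 0 h, and fell by 1.34 (SE 0.22, adjusted p = 0.00369). P0 (chromosome 12, 8761091 to 8764562) had 75.5, 104 and 95.2 CPM at 6 d, against 303, 270.2 and 268 CPM at 0 h, and fell by 1.41 (SE 0.27, adjusted p = 0.00628). The groups were fully separated in each of the 3.

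L32-1 had 15.1, 24.3 and 15.4 CPM at 6 d, against 53.8, 46.7 and 56.3 CPM at 0 h, and fell by 1.12 (SE 0.27, adjusted p = 0.0205). L36-3 had 66.2, 43.9 and 65.2 CPM at 6 d, against 110.4, 91.8 and 131 CPM at 0 h, and fell by 0.94 (SE 0.24, adjusted p = 0.0239). P2A had 19.0, 14.5 and 20.8 CPM at 6 d, against 46.2, 43.9 and 43.0 CPM at 0 h, and fell by 1.13 (SE 0.31, adjusted p = 0.0351). These groups did not overlap either. S7, S6, L23A and L7-4 had changes of -0.78 to -0.60, with adjusted p of 0.0365 to 0.0495. With the leaf as a block the adjusted p was 0.0742 for S7 and 0.0510 for S6. The P2B change of -0.84 ± 0.27 did not pass (adjusted p = 0.0651).

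The count of 10 was 3 without library 1 of 0 h, 4 without library 3 of 0 h, 2 without library 1 of 6 d, 4 without library 2 of 6 d and 6 without library 1 of 10 d. S15a and CN01_08G008030 were called in each of these fits. Library 1 of 6 d, which was on the flow cell of 0 h, lay below all of 0 h in 26 members, against 36.6% of all genes, with a median log2 ratio of -0.48. Leaf markers took 6.84% to 9.01% of the counts in the 6 d libraries, against 4.66% to 5.43% at 0 h, and 18 of 25 rose and 1 fell. Their part in the result was not tested.

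At 10 d 9 members were lower than at 0 h in the dwarf and 0 were higher, where 3.97% of all genes fell and 4.03% rose. At an unadjusted p under 0.05, 19 were lower and 0 higher, to which those shares of all genes do not apply. The median change was -0.56 (range -1.76 to -0.00), against -0.05 for all genes. Every 10 d library was below every 0 h library in 27 members (27.1% of all genes). This comparison lies wholly between the flow cells, and leaf markers moved with it too, at 6.21% and 6.83% of the counts at 10 d, against 4.66% to 5.43% at 0 h, with 6 of 25 that rose and 0 that fell.

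The change was largest in P2A, with 8.58 and 13.5 CPM at 10 d, against 46.2, 43.9 and 43.0 CPM at 0 h (-1.76 ± 0.39, 0.296-fold, adjusted p = 0.0149). P2B had 16.8 and 18.4 CPM at 10 d, against 25.5, 23.4 and 26.3 CPM at 0 h. Both of its 10 d libraries were lower too, but its change of -0.33 ± 0.32 did not pass the test (adjusted p = 0.573). P0 had 76.8 and 93.3 CPM at 10 d, against 303, 270.2 and 268 CPM at 0 h (-1.44 ± 0.32, adjusted p = 0.0145). CN01_08G008030 had 17.5 and 20.8 CPM at 10 d, against 61.1, 51.8 and 55.7 CPM at 0 h (-1.60 ± 0.27, adjusted p = 0.00568). S15a had 48.1 and 44.8 CPM at 10 d, against 168, 121 and 155 CPM at 0 h (-1.50 ± 0.25, adjusted p = 0.00568). In each of these the 10 d libraries were below all of 0 h.

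S7 had 17.2 and 19.1 CPM at 10 d, against 40.3, 48.7 and 34.1 CPM at 0 h (-1.18 ± 0.24, adjusted p = 0.0112). L36-3 had 43.3 and 45.1 CPM at 10 d, against 110.4, 91.8 and 131 CPM at 0 h (-1.35 ± 0.29, adjusted p = 0.0133). L7-4 fell by 1.04 (SE 0.28, adjusted p = 0.0331) and the L37a copy CN01_06G005180 fell by 0.75 (SE 0.20, adjusted p = 0.0316). L32-1 fell by 1.11 (SE 0.33, adjusted p = 0.0438, and 0.0866 with the leaf as a block). The L35a-1 copy CN01_14G000200 had a change of -1.09 ± 0.34 (adjusted p = 0.0555, and 0.0417 with that block). The count of 9 was 6 without library 1 of 0 h, 1 without library 1 of 10 d, which was S15a, and 4 without library 2 of 10 d.

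Set side by side, 8 members were lower at both 6 d and 10 d (1.23% of all genes): L7-4, L32-1, CN01_08G008030, P0, S7, S15a, L36-3 and P2A. With the leaf as a block this held for 6 of them, without S7, which lost its 6 d call, and L32-1, which lost its 10 d call. In 5 members a rise at 4 h and a fall at 6 d or 10 d were both called (1.02% of all genes), namely CN01_08G008030, L23A, S7, S15a and L36-3, and with that block also in the L35a-1 copy CN01_14G000200. These comparisons share the 0 h libraries, so they are not separate evidence. Several calls also hung on single libraries. At 6 d the call of P2A was lost in 6 of the fits that left out 1 dwarf library. The L36-3 call was lost in 4, the L32-1 call in 3 and the P0 call in 1. At 6 d L7-4 lost its call without library 1 or 3 of 0 h, 1 of 4 h, or 1 or 2 of 6 d. That call was also lost without library 1 or library 2 of 10 d, fits that leave a lone library at 10 d (changes of -0.76 and -0.78). CN01_08G008030 and S15a kept theirs at 6 d.

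The comparison of 6 d with 4 h in the dwarf does not use the 0 h libraries in its difference. There 27 members fell and 0 rose, where 18.0% of all genes fell and 18.0% rose, and the median change was -1.05 against -0.02 for all genes. CN01_08G008030 had 19.7, 18.1 and 30.4 CPM at 6 d, against 162, 115 and 169 CPM at 4 h (-2.71 ± 0.20, adjusted p = 1.36e-07). S15a had 47.2, 50.7 and 65.2 CPM at 6 d, against 191, 178 and 257 CPM at 4 h (-1.92 ± 0.19, adjusted p = 1.52e-06). S7 had 25.2, 24.6 and 25.2 CPM at 6 d, against 89.2, 59.6 and 94.2 CPM at 4 h (-1.69 ± 0.18, adjusted p = 3.59e-06). In all 3 the highest 6 d library was far below the lowest 4 h library. CN01_10G006530 had 162, 162 and 123 CPM at 6 d, against 303, 327 and 368 CPM at 4 h (-1.16 ± 0.14, adjusted p = 8.05e-06). L36-3 had 66.2, 43.9 and 65.2 CPM at 6 d, against 199, 149.7 and 236 CPM at 4 h (-1.74 ± 0.22, adjusted p = 1.72e-05). P0 had 75.5, 104 and 95.2 CPM at 6 d, against 352, 272 and 414 CPM at 4 h (-1.88 ± 0.24, adjusted p = 1.98e-05). None of these groups overlapped. Between 10 d and 6 d 0 members were called by edgeR in either direction (0.281% of all genes were higher at 10 d and 0.356% lower). At an unadjusted p under 0.05 there were 3 members lower and 0 higher, to which those shares do not apply. DESeq2 and limma also called 0 members.

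In the dwarf, 20 members were called in at least 1 of the 3 comparisons with 0 h, where 22.7% of all genes were, and 15 members in none. S8 had 468, 444 and 465 CPM at 4 h, 434, 362 and 624 CPM at 6 d and 448 and 387 CPM at 10 d, against 399, 359 and 401 CPM at 0 h. Only its 4 h libraries were clear of the control (adjusted p = 0.637, 0.583 and 0.997 in order of time). S27a had changes of -0.02 ± 0.20, 0.06 ± 0.20 and -0.02 ± 0.23 in the same order (adjusted p = 0.968, 0.884 and 0.972). A p that misses the threshold does not show that the level was the same.

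Genes that carry the same protein name had unequal values. The 3 L9 copies have the same coding length. Expected counts of CN01_07G008500 and CN01_10G006530 were not whole in any library, while those of CN01_08G008030 were whole in all. That copy held 21.2% ± 3.4 of the L9 counts at 4 h in the dwarf, against 12.8% ± 0.69 at 0 h (SD, n = 3 each). At 6 d it held 6.66% ± 2.5 (n = 3) and at 10 d 6.20% ± 0.31 (n = 2). CN01_07G008500 had 178, 184 and 166 CPM at 6 d, against 189, 176 and 164 CPM at 0 h. Its libraries overlapped, with a change of 0.09 ± 0.14 (adjusted p = 0.721), while CN01_08G008030 fell. The difference between copies was not tested. Summed over the copies, L9 rose at 4 h by 0.73 ± 0.14 (adjusted p = 0.00253) and had changes of -0.27 ± 0.14 at 6 d and -0.41 ± 0.17 at 10 d (adjusted p = 0.243 and 0.134).

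The expected counts of P2A and P2B were not whole in 2 of 22 libraries each, which does not show with which gene reads were shared. P2A held 38.1% ± 6.1 of their counts at 10 d in the dwarf (n = 2), against 63.9% ± 1.7 at 0 h (n = 3). In the tall its share was 48.4% ± 1.8 at 10 d (n = 2), against 69.2% ± 4.0 at 0 h (n = 3). P2A was the larger of the pair in each 0 h library and the smaller in each dwarf 10 d library. As a sum P2 fell by 1.02 at 6 d (SE 0.27, adjusted p = 0.0295), and its sums at 4 h and 10 d did not pass (adjusted p = 0.0771 and 0.0535).

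For L37a the copy CN01_10G003160 held 26.2% ± 1.8 of the counts at 4 h in the dwarf, against 17.1% ± 0.20 at 0 h (n = 3 each). The L37a sum rose at 4 h by 0.55 ± 0.14 (adjusted p = 0.0168) and fell by 0.66 at 10 d (SE 0.17, adjusted p = 0.0274). The L35a sum rose at 4 h by 0.74 ± 0.17 (adjusted p = 0.0102). The sums of the L5 pair and of the L7 pair passed in none of the 3 comparisons with 0 h, with adjusted p of 0.114 to 0.352.

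**Figure D4:**
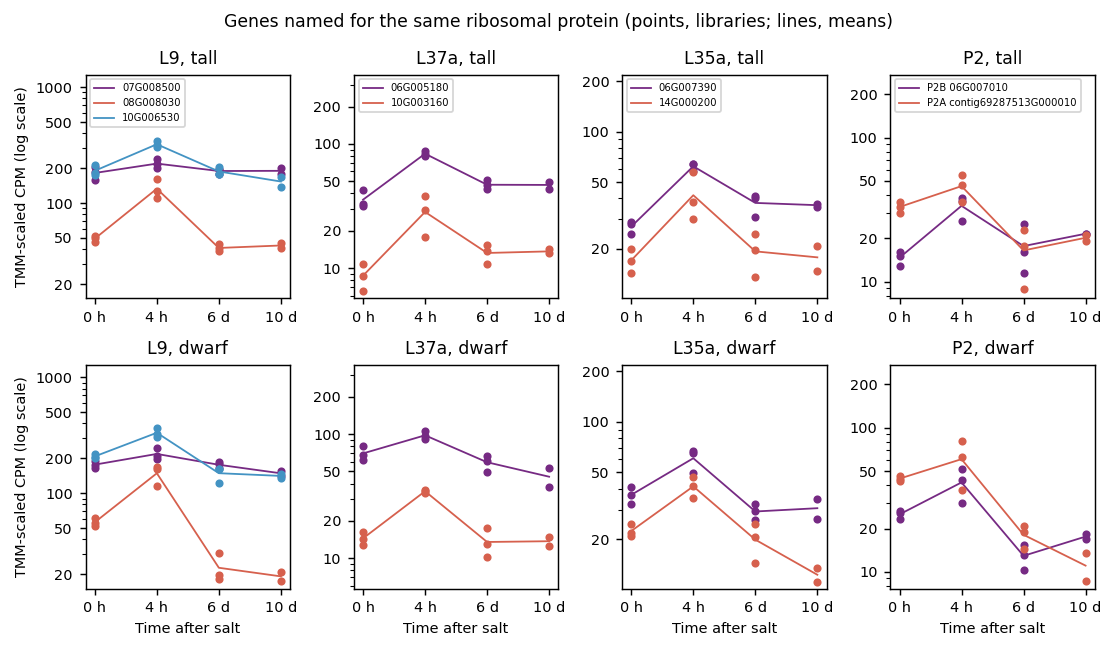
TMM-scaled CPM (log scale) of genes named for the same ribosomal protein over the 4 times, in Hainan tall (top) and Aromatic dwarf (bottom), with points for libraries, lines through group means and colours for gene copies. In the dwarf the L9 copy 08G008030 is at 17.5 and 20.8 CPM at 10 d while 07G008500 is at 141 and 156 CPM, and the P2A line crosses below P2B.

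The tall libraries were used to choose the members, so their values are a description without a test. At 4 h the median log2 change was 0.70 and 31 members were above 0. In 25 members every 4 h library was above every 0 h library, where 18.6% of all genes had that pattern. The largest changes were those of S18 (1.70 ± 0.35), the L37a copy CN01_10G003160 (1.70 ± 0.25) and CN01_08G008030 (1.42 ± 0.19). S18 had 366, 573 and 712 CPM at 4 h, against 111, 285 and 125 CPM at 0 h. One of its 0 h libraries lay well above the others, but still below all of 4 h.

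At 6 d the tall median was -0.01 and at 10 d 0.11. At 10 d S15a (-1.06 ± 0.23), P0 (-0.77 ± 0.29) and L32-1 (-0.59 ± 0.30) were lowest, and S8 (0.67 ± 0.23), L21-1 (0.67 ± 0.23) and P2B (0.67 ± 0.30) highest. On the FPKM scale, which TMM does not touch, the 6 d and 10 d medians were -0.31 and -0.11, and those of all genes -0.31 and -0.23. The classes ask for a 2-fold change in mean FPKM. The ratio of 4 h to 0 h was 2.17 for L13-1, just inside, and 1.997 for L7-4 and 1.97 for L44, just outside. On the falling side the ratio of 10 d to 0 h was 0.417 for L32-1, inside, and the ratio of 6 d to 0 h was 0.539 for the L5 copy CN01_02G012410, outside.

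The median log2 difference between the varieties, tall minus dwarf, was -0.14 at 0 h, -0.11 at 4 h, 0.18 at 6 d and 0.45 at 10 d, and that of all genes was -0.02, -0.00, -0.01 and 0.00. At 10 d both tall libraries were above both dwarf libraries in 29 of 35 members, against 23.5% of all genes. Tall values at 10 d had a part in choosing the members, so that share is no measure for this count. SA (chromosome 8, 32907951 to 32912191) had 307 and 313 CPM in the tall and 127 and 148 CPM in the dwarf at 10 d, a difference of 1.17 ± 0.28. CN01_08G008030 had 45.4 and 40.7 CPM in the tall and 17.5 and 20.8 CPM in the dwarf (1.16 ± 0.25). L26-2 had 133 and 112 CPM in the tall and 49.6 and 61.4 CPM in the dwarf (1.15 ± 0.30). None of the 3 pairs of groups overlapped.

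At 0 h the difference was below 0 in 24 members. In 11 members every tall library was below every dwarf library, where 9.09% of all genes had that pattern. All of them but L7-4 and P2A are of the class raised at 4 h, which a low tall value at 0 h favours. The share of all genes is therefore no measure for this count. S18 had 111, 285 and 125 CPM in the tall and 388, 323 and 299 CPM in the dwarf (-1.12 ± 0.36). The L37a copy CN01_06G005180 had 32.7, 42.5 and 31.4 CPM in the tall and 79.8, 68.4 and 61.5 CPM in the dwarf (-1.03 ± 0.16). Both pairs of groups were apart. All 12 members classed as raised at 4 h were lower in the tall at 0 h, with a median of -0.59. That class was chosen by tall values that include 0 h.

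**Figure D5:**
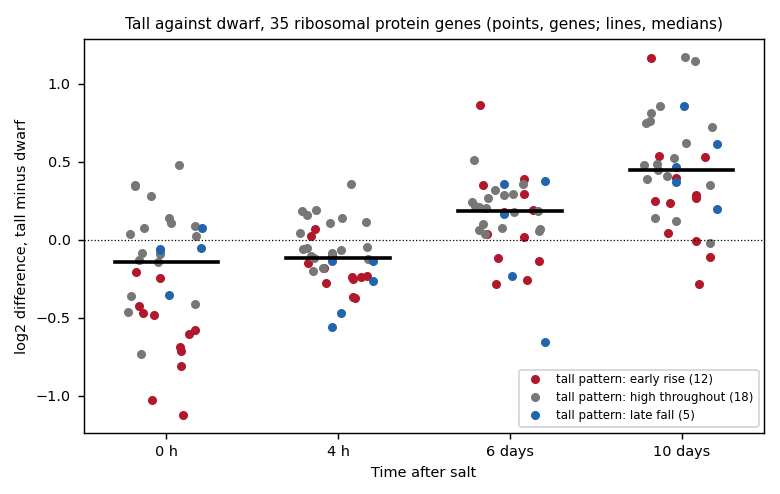
Log2 difference between Hainan tall and Aromatic dwarf (tall minus dwarf) for each of the 35 members at each of the 4 times, with points for genes, coloured by class in the tall (early rise, raised at 4 h; late fall, lowered late), and lines for medians. The medians are -0.14 and -0.11 at 0 h and 4 h and 0.18 and 0.45 at 6 d and 10 d.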

How the data were processed

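Leaf RNA of 11 Hainan tall and 11 Aromatic dwarf samples was sequenced as single-end reads. The authors mapped reads to gene sequences by Bowtie within RSEM, whose versions are not given in the sources used here. For each gene of a library the deposited tables hold an expected count, often with decimals. The FPKM beside it was also deposited by the authors. Genes absent from a library's table were set to 0.

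Members, lists and roles were chosen with earlier results of these data known. Locus tags came from the supplementary table, and positions from the RefSeq gene table of assembly ASM812446v1, where 5355 of 5355 loci compared had the same position. Of the members, 28 are on chromosomes and 7 on unplaced scaffolds. No sequences were used.

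Expected counts were rounded, filtered by filterByExpr over the 8 groups of variety and time, and scaled by TMM. The quasi-likelihood test of edgeR 4.0.16 (R 4.3.3) was fitted to all 22 libraries with the groups and the flow cell (common biological coefficient of variation 24.0%, 13 residual degrees of freedom). SE is the absolute log2 fold change over the square root of F. The study screened genes with NOISeq, which gives no error per gene, so another test was used. Counts of genes with the same protein name were also summed and tested in the same fit.

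Every member is given with its group means. Values of every library are given for up to 6 members per direction and dwarf comparison with the smallest adjusted p. The copies of a shared name and those nearest the class limits are also described. S18, S5, S8, S27a, SA and L26-2 were singled out after their values were seen. The lists of leaf markers, translation factors, chloroplast translation and ribosome biogenesis came from product names among the same 738 entries. They too hold only genes put into a class by their FPKM in the tall, and not all genes with such names.

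On simulated dwarf 4 h counts (18361 genes), the test recovered 19% of 100 genes changed 2-fold and 79% of 100 changed 4-fold, and 4 of 102 calls were false. Only these genes were changed, drawn from all genes and not from the members, with no leaf or flow cell effect. In the data 13.0% of all genes were called at 4 h, so recovery there may differ. Libraries of 1 number are of 1 leaf by the methods, which pairs them. Correlation of their residuals averaged 0.228 in the tall (0.072 to 0.432 over 15 pairs) and 0.098 in the dwarf (-0.275 to 0.417 over 15 pairs). One alternative blocked on the leaf. The others were a fit with no flow cell term, limma 3.58.1 on log2(FPKM + 1) or with 0.1 added in place of 1, DESeq2 1.42.0, all genes kept, a minimum of 50 counts in all libraries of some group, a fit to 1 variety alone, an added log2 fold change of 1, TMM without the members and leaving out each library.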

Additional observations from a re-analysis of the deposited data

Results flagged for a closer look

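In 4 members every tall library of a late time lay above every tall 0 h library while every dwarf library lay below its own 0 h, in TMM-scaled CPM. The difference between the varieties was not tested, because the tall libraries chose the members. All 4 are of the class raised at 4 h, which was chosen by tall values that include 0 h. A low tall level at 0 h favours both that class and this pattern. The shares of all genes below are therefore no measure for the members. At 10 d this held for P2B (log2 change 0.67 in the tall and -0.33 in the dwarf, a difference of 1.0), the L37a copy CN01_06G005180 (0.31 in the tall and -0.75 in the dwarf, a difference of 1.07) and L19-3 (0.46 in the tall and -0.50 in the dwarf, a difference of 0.96). At 6 d it held for L19-3 (0.53 in the tall and -0.46 in the dwarf, a difference of 0.98) and the L35a-1 copy CN01_06G007390 (0.47 in the tall and -0.31 in the dwarf, a difference of 0.78). The same pattern was seen in 0.971% of all genes at 10 d and in 0.265% at 6 d. The opposite one, the tall below and the dwarf above, was seen in 0.626% of all genes at 10 d and in 0.234% at 6 d, with 0 members among them. In FPKM, where the median of all genes was lower at these times than at 0 h, the dwarf libraries stayed below 0 h in each case and the tall libraries stayed above only for P2B.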

How the results depend on the processing

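In the dwarf, 0 members fell at 4 h and 0 rose at 6 d or 10 d under the alternatives run. A count of members without a number of genes beside it has no background here. Counts that moved by over 1.5 times were as follows. At 4 h, 7 members rose (618 genes called) with the dwarf libraries alone and 3 (1423 genes) with an added log2 fold change of 1. At 6 d, 16 members fell by limma with either pseudocount (2691 genes with 1 and 2603 with 0.1), 3 (484 genes) with the dwarf alone and 5 (812 genes) with the added fold change, and 2773 genes were called without the flow cell term. At 10 d, 17 members fell without the flow cell term (3514 genes), 17 by limma with either pseudocount (2288 genes with 1 and 2318 with 0.1), 14 by DESeq2, 14 with the 50-count minimum and 2 with the dwarf alone (436 genes). Between 6 d and 4 h, 3952 genes were called with the added fold change. Between 10 d and 6 d, 507 were called by DESeq2, 54 by limma on log2(FPKM + 1), 207 with the 50-count minimum and 0 with the dwarf alone. The added fold change is stricter and the dwarf fit has fewer samples by construction, and the cause of the other differences was not tested.

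Leaving out each dwarf library in turn, 3 to 18 members rose at 4 h (968 to 2857 genes called), and 2 to 11 fell at 6 d (123 to 1808 genes), 1 to 12 at 10 d (81 to 1944 genes) and 25 to 30 between 6 d and 4 h (5189 to 6851 genes). Between 10 d and 6 d, 5 to 340 genes and 0 members were called. A lone 10 d library was taken to vary like the other groups. Tall medians were 0.59 to 0.77 at 4 h, -0.09 to 0.04 at 6 d and 0.02 to 0.14 at 10 d.

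With the leaf as a block, 17 members rose at 4 h, 8 fell at 6 d, 9 at 10 d and 27 between 6 d and 4 h. The share of all genes called in that fit is not given here, so these counts have no background. Beyond the 7 calls given beside their results, the block changed no other call of a member.

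In log2(FPKM + 1) the median of all genes at 6 d was -0.27 in the dwarf and -0.31 in the tall, and that of the members -0.65 in the dwarf and -0.31 in the tall. At 10 d the members' median was -0.81 in the dwarf and -0.11 in the tall. A pseudocount of 0.1 gave -0.31 and -0.11 in the tall. Some small late changes turned sign. The L9 copy CN01_07G008500 at 6 d was -0.0039 without the flow cell term and -0.18 by limma with either pseudocount. CN01_10G003160 was 0.079 at 6 d and 0.21 at 10 d with the dwarf alone. The L5 copy CN01_scaffold004063G000090 at 6 d ranged over -0.34 to 0.13 when a library was left out (0.036 without library 3 of 0 h, 0.0066 without library 1 of 6 d). Of 1155 values of named members under alternatives, 64 lost and 49 gained a call.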

Other observations

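Other genes of protein synthesis were followed in the same dwarf comparisons with 0 h. Like the members, these genes and those of chloroplast translation below were listed through their class in the tall. Shares of all genes are therefore no matched background for them. Both ribosome biogenesis genes were lower late. The nucleolar protein 5-2 (CN01_contig69612081G000010), of the family that builds box C/D small nucleolar ribonucleoproteins, had changes of -1.74 ± 0.31 at 6 d and -2.74 ± 0.40 at 10 d (edgeR adjusted p = 0.00462 at 6 d and 0.00396 at 10 d). The rRNA methyltransferase nop2 (CN01_01G013430) rose at 4 h by 0.98 ± 0.25 (adjusted p = 0.0172) and fell by 1.33 at 6 d (SE 0.26, adjusted p = 0.00695). Of 8 cytosolic translation factor genes 2 rose at 4 h (5.81% of all genes), both for elongation factor 1-alpha, which brings aminoacyl-tRNA to the ribosome. CN01_16G006890 rose by 0.85 ± 0.21 (adjusted p = 0.0124) and CN01_13G002840 by 0.84 ± 0.24 (adjusted p = 0.0265). CN01_16G006890 was also the 1 of the 8 that fell at 6 d (-0.79 ± 0.21, adjusted p = 0.0323), where 3.61% of all genes fell. At 10 d 1 fell, CN01_16G002760 for an elongation factor 1-beta (-1.04 ± 0.31, adjusted p = 0.0490), where 3.97% of all genes fell.

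In the dwarf, genes of chloroplast translation had calls in the opposite directions at 4 h and 6 d. At 4 h 3 of 7 fell and 0 rose, against 7.23% of all genes that fell, and at 6 d 3 of 7 rose and 0 fell, against 4.36% of all genes that rose. At 10 d 1 rose and 1 fell, against 4.03% of all genes that rose and 3.97% that fell. The chloroplast ribosomal protein L1 gene CN01_16G001820 fell by 0.89 at 4 h (SE 0.20, adjusted p = 0.00868), and rose by 1.24 ± 0.20 at 6 d (adjusted p = 0.00322) and by 1.33 ± 0.24 at 10 d (adjusted p = 0.00654). The leaf markers of the dwarf moved in the same directions at these times, and their part was not tested. In the tall the chloroplast translation genes took 0.230% ± 0.049 of the counts at 0 h and 0.283% ± 0.013 at 4 h (SD, n = 3 each). These tall shares were not tested.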
